A study of Homo sapiens with 6 samples.

Results

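The 10 genes described here encode CTCF, cohesin and the proteins that load cohesin on DNA or release it from DNA. They are CTCF, RAD21, SMC1A, SMC3, STAG1, STAG2, NIPBL, MAU2, WAPL and PDS5A, taken by name, and all 10 are among the 62754 genes in the deposited tables. All 10 also passed the filter on low values, which kept 14294 genes (3 or more of the 6 libraries had to reach a TPM of 1, where TPM is a transcript's share of its library, corrected for length and scaled to sum to 1000000). The libraries were made from poly(A)-selected RNA of HUDEP-2, a human erythroid progenitor line immortalised with an inducible oncogene, so that all values come from 1 line. Cells carried a lentiviral short hairpin RNA against MEN1 (3 libraries) or a non-targeting hairpin (3 libraries), and their RNA was profiled 72 h after transduction. Both groups grew in StemSpan SFEM, to which 3 units/ml of EPO (erythropoietin), 50 ng/ml of SCF (stem cell factor), 1e-06 M of dexamethasone and 1 µg/ml of doxycycline had been added. Both were also kept in 2 µg/ml of puromycin for 48 h, starting 24 h after infection. The control group is labelled WT for genotype. The labels name a single hairpin against MEN1, so loss of menin and effects of this hairpin on other transcripts cannot be told apart.

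Cohesin is a ring of SMC1A, SMC3 and the kleisin RAD21, with STAG1 or STAG2 bound to it. NIPBL with its partner MAU2 drives the ring along DNA to extrude loops, WAPL with PDS5A or PDS5B opens it, and CTCF bound at its motif stops it, which sets the borders of chromatin domains. In erythroid cells CTCF sites flank the beta-globin locus, whose enhancer contacts the globin promoters, and menin is a subunit of the MLL1 and MLL2 histone methyltransferase complexes.

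MEN1 itself was measured first as a check of the labels. It stood at 6.29, 6.44 and 6.88 TPM after knockdown, against 41.2, 39.6 and 37.1 TPM in the controls (log2 fold change -2.42, adjusted p 8.5e-06 in limma). Aligned depth, read from the ratio of deposited coverage to FPKM in single-transcript genes, was 5.56 to 10.8 gigabases per library. The cells carried erythroid markers, since HBB, ALAS2, SLC4A1 and the other 6 of 9 summarised here all passed the filter. Their summed TPM was 45046 to 49179 in the controls and 75233 to 83013 with the MEN1 shRNA. Most of this sum came from HBB (mean 30237 TPM in the controls, 50171 with the MEN1 shRNA) and HBA1 (12208 and 23556 TPM). Of the markers of other cell types, 5 of 6 megakaryocyte, 5 of 6 myeloid, 4 of 5 lymphoid and 3 of 5 stromal genes stayed below 1 TPM in every library. PF4, PPBP, MS4A1 and DCN are listed at 0 in all 6. The exceptions were ITGA2B (33.8 TPM in the controls, 18.6 with the MEN1 shRNA), CD3D (0.397 and 4.40 TPM), LYZ (1.48 and 0.198 TPM) and the collagen genes COL1A1 and COL1A2. The 2 collagen genes reached 2.24 and 2.02 TPM in control replicate 2 alone, and at most 0.188 TPM in any other library.

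All 10 genes were well expressed in HUDEP-2, with mean levels above those of 58.4% (STAG1) to 97.6% (RAD21) of the tested genes, whose median was 15.6 TPM. In the control libraries RAD21 led at 308 ± 9.11 TPM (SD, n = 3), followed by SMC3 at 105 ± 3.00, PDS5A at 95.6 ± 3.78, SMC1A at 85.8 ± 2.08 and STAG2 at 85.5 ± 1.76. CTCF at 62.8 ± 5.90, WAPL at 50.8 ± 4.76, NIPBL at 48.2 ± 3.48, MAU2 at 38.2 ± 2.57 and STAG1 at 18.5 ± 0.769 TPM came after. Neighbours in this order had separate ranges in the controls, except SMC1A and STAG2, and WAPL and NIPBL. The order is that of TPM. In deposited coverage STAG2 (15.9 to 25.7 reads per base) lay far below SMC1A (224 to 352) and also below STAG1 (42.4 to 71.2). Coverage is no fixed multiple of FPKM across these genes. Relative to what FPKM and depth give for a single-transcript gene, control coverage was 5.86% for STAG2, 82.0% for SMC1A and 72.4% for STAG1. RAD21 alone made up 51.1% of the summed TPM of RAD21, SMC1A, SMC3, STAG1 and STAG2 in the controls. With the MEN1 shRNA it made up 51.8%, and it was above each of these partners in every library. The germline versions STAG3 (125 TPM in the controls), SMC1B and REC8 are not in this sum.

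**Figure D1:**
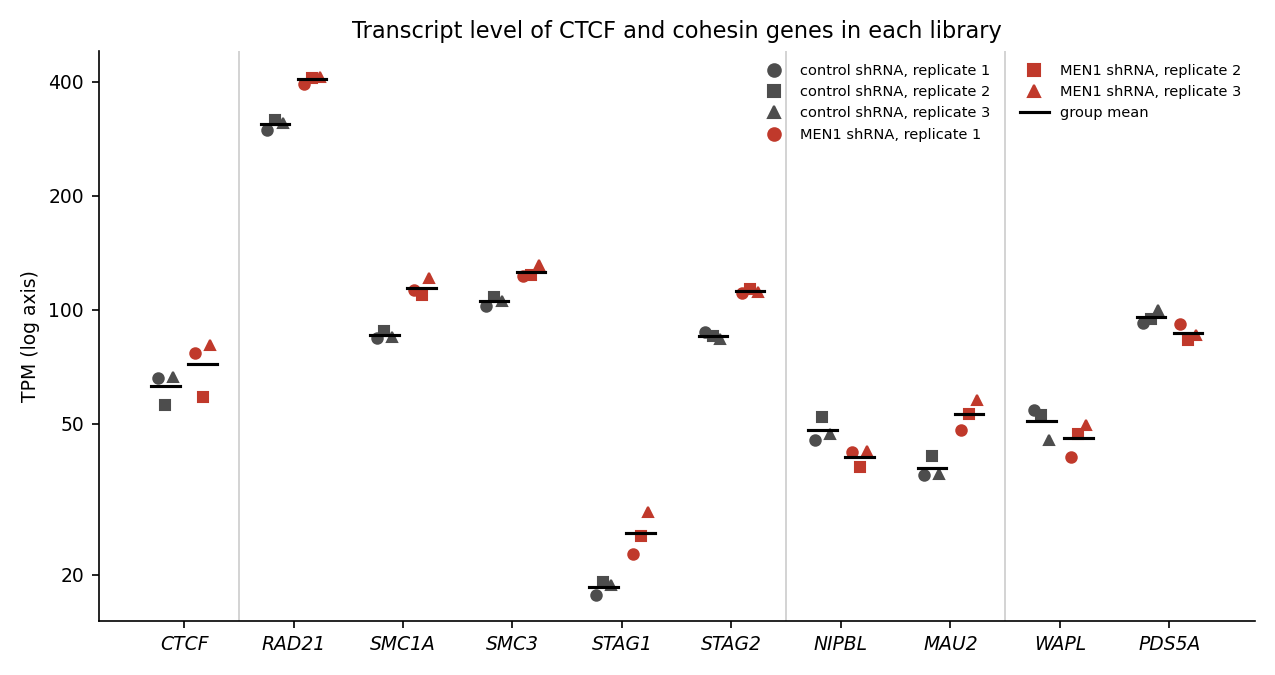
TPM (log axis) of each gene in each of the 6 libraries, with CTCF, the 5 core subunits, the loaders and the release factors set apart by grey lines; symbols mark replicates and bars the group means. All 3 MEN1 shRNA libraries lie above all 3 controls for RAD21, SMC1A, SMC3, STAG1, STAG2 and MAU2, and below them for NIPBL and PDS5A.

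The cohesin ring genes rose together after the MEN1 shRNA, and so did the loader partner MAU2, while NIPBL fell slightly and CTCF, WAPL and PDS5A did not pass the test. Of the 10 genes, 7 passed an adjusted p of 0.05 in limma (70.0%), against 53.6% of all tested genes. Of the 10, 6 rose, against 22.1% of all tested genes, and 1 fell, against 31.5%. Under median-of-ratios scaling 6 of the 10 rose and 0 fell, while over all genes 3758 rose and 3838 fell. The groups did not overlap in 8 of the 10, against 61.8% of all tested genes. Of these 8, 6 were higher after MEN1 knockdown, against a background of 25.8%, and 2 were lower, against 35.9%. The changes were small: the median log2 fold change of the 10 was 0.32, beside -0.07 over all tested genes, and the median size among the 7 that passed was 0.39, beside 0.62 among all genes that passed.

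**Figure D2:**
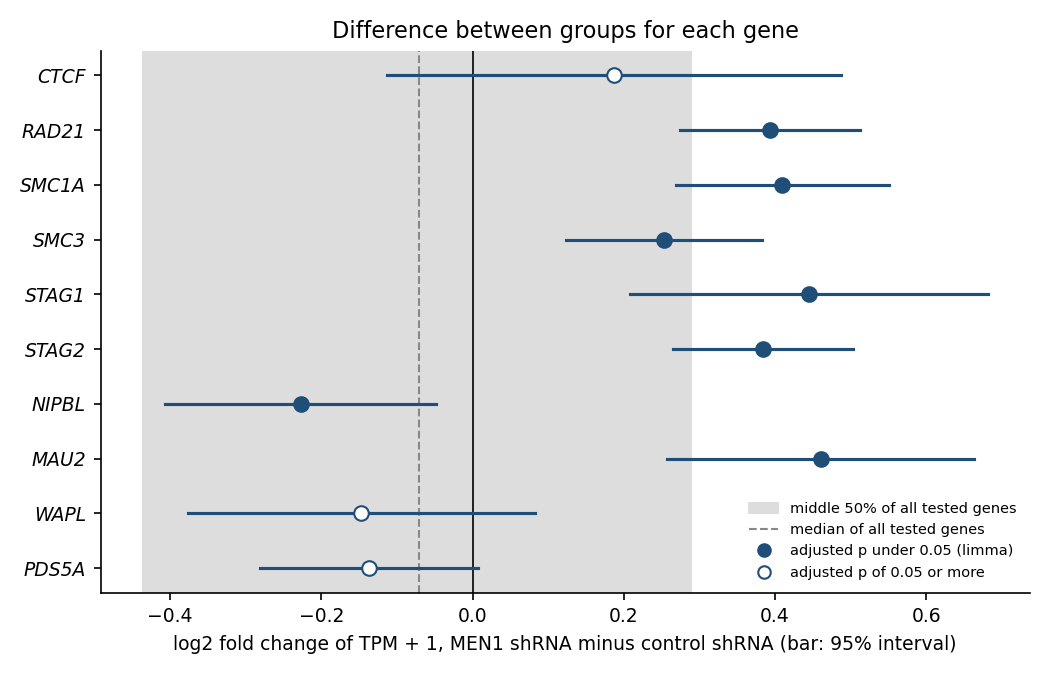
Log2 fold change of TPM + 1 for each gene, MEN1 shRNA minus control shRNA, with its 95% interval from limma; filled points passed an adjusted p of 0.05, the grey band holds the middle 50% of all tested genes (-0.44 to 0.29) and the dashed line is their median. Intervals of the 5 core subunits and MAU2 lie above 0, that of NIPBL below 0, and those of CTCF, WAPL and PDS5A include 0.

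RAD21 encodes the kleisin that closes the ring and is cut by separase when sister chromatids part. Its TPM was 394, 410 and 412 in replicates 1, 2 and 3 of the knockdown, against 298, 316 and 311 in the controls. Every MEN1 shRNA library thus lay above every control. RAD21 rose by 0.39 on the log2 scale (SE 0.0510, limma adjusted p 0.000499). RAD21 (ENSG00000164754, chromosome 8, 116845934 to 116874776, minus strand) overlaps UTP23, on the other strand, at its 3′ end. UTP23 fell, from 30.6 TPM in the controls to 22.1 (log2 fold change -0.46, adjusted p 0.00113), and whether the counting used strand is not given in the sources used here.

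SMC1A and SMC3 encode the coiled-coil ATPases that form the arms of the ring. SMC1A (ENSG00000072501, chromosome X, 53374149 to 53422728, minus strand) was at 113, 109 and 121 TPM after MEN1 knockdown, against 84.3, 88.1 and 84.9 TPM in the controls, a ratio of means of 1.33 (log2 fold change 0.41, SE 0.0603, adjusted p 0.000918). SMC3 (ENSG00000108055, chromosome 10, 110567684 to 110606048, plus strand) was at 123, 123 and 131 TPM after MEN1 knockdown, against 102, 108 and 106 TPM in the controls. Its rise was the smallest among the ring genes, with a ratio of means of 1.19 (log2 fold change 0.25, SE 0.0557, adjusted p 0.00626). In neither gene did the groups overlap.

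STAG1 and STAG2 encode alternative subunits that dock on the kleisin and contact CTCF. STAG2 (ENSG00000101972, chromosome X, 123960212 to 124422664, plus strand) was the steadiest of the 10 genes, at 111, 113 and 111 TPM after MEN1 knockdown, against 87.4, 85.0 and 84.0 TPM in the controls (log2 fold change 0.38, SE 0.0510, adjusted p 0.000553). STAG1 (ENSG00000118007, chromosome 3, 136336236 to 136752403, minus strand) was at 22.7, 25.3 and 29.2 TPM after MEN1 knockdown, against 17.7, 19.2 and 18.8 TPM in the controls. It rose 1.39-fold (log2 fold change 0.44, SE 0.101, adjusted p 0.00735), with more spread among the MEN1 shRNA libraries than STAG2 had. The 3′ end of STAG1 overlaps PCCB on the other strand, which was more abundant and fell from 216 to 172 TPM (-0.33 on the log2 scale, adjusted p 0.00117).

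The balance between the 2 STAG genes was compared as a share within each library, which does not depend on how a library is scaled. STAG1 made up 17.0%, 18.2% and 20.8% of STAG1 plus STAG2 TPM in the knockdown, against 16.8%, 18.4% and 18.3% in the controls. The ranges overlapped, and the difference of 0.830 percentage points had a 2-sided exact permutation p of 0.7. Without MEN1 shRNA replicate 3 the difference was -0.222 percentage points. In deposited coverage STAG1 (42.4 to 71.2 reads per base) lay above STAG2 (15.9 to 25.7) in every library. Relative to what FPKM and depth give for a single-transcript gene, control coverage was 72.4% for STAG1 and 5.86% for STAG2. Coverage thus does not rank these genes against each other, and the cause was not tested. From coverage the difference in the share was 0.208 percentage points (exact permutation p 0.9). Fitted in limma as a log2 ratio, STAG1 against STAG2 differed by 0.08 with a 95% interval from -0.16 to 0.31, which corresponds to a fold of 0.896 to 1.24.

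The 2 subunits of the loader moved in opposite directions. NIPBL, the HEAT-repeat protein that stimulates the cohesin ATPase (ENSG00000164190, chromosome 5, 36876769 to 37066413, plus strand), was at 42.1, 38.4 and 42.5 TPM after MEN1 knockdown, against 45.3, 52.1 and 47.1 TPM in the controls. Its level fell by 14.9% (log2 fold change -0.23, SE 0.0769, adjusted p 0.0383), and the groups were close but did not overlap. MAU2, which binds the end of NIPBL and stabilises it (ENSG00000129933, chromosome 19, 19320829 to 19358754, plus strand), was at 48.1, 53.0 and 57.8 TPM after MEN1 knockdown, against 36.5, 41.1 and 36.8 TPM in the controls. Its log2 fold change of 0.46 (SE 0.0872, adjusted p 0.00310) was close to that of STAG1. The NIPBL fall did not hold in every setting: it did not pass under median-of-ratios scaling (-0.14, adjusted p 0.117) and 10 of the other 16 alternatives. Among these were the fits without MEN1 shRNA replicate 2 (adjusted p 0.123), MEN1 shRNA replicate 3 (0.0578), control replicate 2 (0.123) and control replicate 3 (0.0725), whereas MAU2 passed in all of them but a test against a minimum change of 0.5.

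The ratio of NIPBL to MAU2 transcripts was computed after these opposite values were seen. It was 1.26 in the controls and 0.775 with the MEN1 shRNA in TPM. In deposited coverage NIPBL (82.1 to 186 reads per base) lay above MAU2 (17.5 to 27.1) in every library. Relative to what FPKM and depth give for a single-transcript gene, control coverage was 74.3% for NIPBL and 14.5% for MAU2. Coverage thus does not rank these genes against each other. On the log2 scale the libraries were at -0.19, -0.46 and -0.44 after MEN1 knockdown, against 0.31, 0.34 and 0.36 in the controls. The groups did not overlap and differed by -0.70, or by -0.51 from coverage; because the ratio was chosen for this difference, no test is given.

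WAPL and PDS5A, which act together to release cohesin, did not pass the test. WAPL (ENSG00000062650, chromosome 10, 86435256 to 86521792, minus strand) was at 40.9, 46.9 and 49.6 TPM after MEN1 knockdown, against 54.3, 52.8 and 45.4 TPM in the controls. The ranges overlapped (log2 fold change -0.15, 95% interval -0.38 to 0.08, adjusted p 0.247). The WAPL difference ran from -0.07 without MEN1 shRNA replicate 1 to -0.22 without control replicate 3, was -0.06 under median-of-ratios scaling and passed in none of the 17 alternatives. PDS5A (ENSG00000121892, chromosome 4, 39822863 to 39977956, minus strand) was at 91.5, 83.4 and 85.8 TPM after MEN1 knockdown, against 92.4, 94.7 and 99.8 TPM in the controls. These ranges nearly touched but did not overlap (log2 fold change -0.14, 95% interval -0.28 to 0.01, adjusted p 0.0986). PDS5A passed without MEN1 shRNA replicate 1 (adjusted p 0.0463) and with array weights (0.0450), but its difference was -0.05 (adjusted p 0.524) under median-of-ratios scaling and -0.07 without globin and mitochondrial genes (0.376) or under quantile normalization (0.372).

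The ratio of loader to release transcripts did not separate the groups. Log2 of NIPBL over WAPL was 0.04, -0.29 and -0.23 after MEN1 knockdown, against -0.26, -0.02 and 0.05 in the controls, with overlapping ranges, a difference of -0.08 and a 2-sided exact permutation p of 0.7. The 95% interval in limma ran from -0.35 to 0.18, so a fall of the ratio by as much as 0.35 on the log2 scale lies within it. The PDS5 pair did differ: PDS5A made up 74.5%, 74.4% and 73.9% of PDS5A plus PDS5B TPM after MEN1 knockdown, against 69.1%, 69.2% and 70.0% in the controls. The difference was 4.82 percentage points, with no overlap and an exact permutation p of 0.1, the smallest that 3 against 3 libraries can give. Adjusted over 5 ratios this p was 0.25. The 5 include NIPBL to MAU2, chosen after its values were seen, which lowers the adjusted p. The log2 ratio of PDS5A to PDS5B differed by 0.34 (95% interval 0.21 to 0.47, adjusted p 0.00146 in limma), PDS5B having fallen. From deposited coverage in place of TPM the difference in the share was 0.943 percentage points and the groups overlapped (exact permutation p 0.2). The limma fits of these ratios were added after the data had been seen.

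CTCF, the zinc-finger protein at insulators (ENSG00000102974, chromosome 16, 67562467 to 67639177, plus strand), was the most variable of the 10 genes. Its TPM was 76.8, 58.7 and 80.7 after MEN1 knockdown, against 66.0, 55.9 and 66.3 in the controls. Replicate 2 was the lowest library in both groups, and MEN1 shRNA replicate 2 lay below 2 of the controls. The log2 fold change of 0.19 (SE 0.129, 95% interval -0.11 to 0.49) did not pass (adjusted p 0.258). It did pass without MEN1 shRNA replicate 2, at 0.33 (adjusted p 0.0308), and over the alternatives other than the test against a minimum change its adjusted p ran up to 0.578.

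CTCF transcripts relative to RAD21 transcripts were at log2 ratios of -2.36, -2.80 and -2.35 after MEN1 knockdown, against -2.18, -2.50 and -2.23 in the controls. The ranges overlapped, and the difference of -0.20 had an exact permutation p of 0.4 (95% interval -0.53 to 0.12 in limma, adjusted p 0.255). With the replicate number as a block the adjusted p in limma was 0.0494. The exact permutation p within blocks was 0.25, the smallest that such a test can give here. Same-numbered libraries did not deviate together, so the replicate numbers were not taken as pairs.

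**Figure D3:**
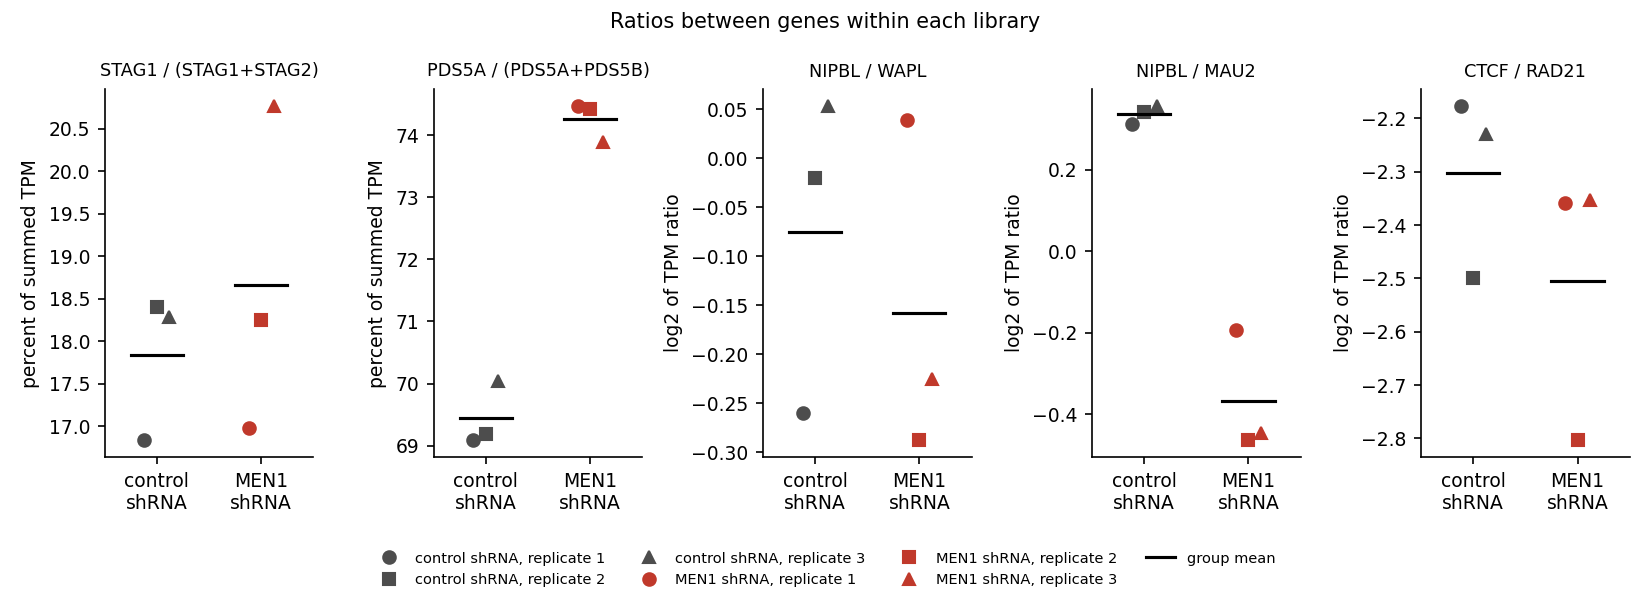
Ratios between pairs of genes within each library: 2 shares in percent of summed TPM and 3 log2 TPM ratios; symbols mark replicates and bars the group means, and the vertical axes do not start at 0. The groups separate for PDS5A among the PDS5 genes (74.3% against 69.4%) and for NIPBL over MAU2 (-0.37 against 0.34), and overlap for the other 3.

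Promoter sequence is shown for the genes that hold a match to the motif of CTCF, YY1 or ZNF143. RefSeq windows on GRCh38.p14, from 250 bases before to 50 after each annotated start, were matched by symbol for 9 of the 10 genes (12 windows), and RAD21 had none. The motifs were chosen after these windows had been read and were searched on both strands: the degenerate CTCF core consensus, AANATGGCG for YY1 and ACTACAANT for ZNF143. No match overlapped another. Capitals mark the match and lower case the sequence around it, 5′ to 3′ on the strand of the gene. STAG1 holds 2 CTCF matches, the first starting 40 bases before the annotated start (chr3:136752404-136752628, minus strand, printed up to the edge of the gene in the deposited tables) and the second from base 19 after it (chr3:136752340-136752369). WAPL holds a ZNF143 match 144 bases before its start (chr10:86521793-86522042, minus strand). A YY1 match begins 9 bases before the start of SMC3 (chr10:110567675-110567704, plus strand), at base 27 of CTCF (chr16:67562541-67562570, plus strand) and at base 29 of MAU2 (chr19:19320846-19320875, plus strand); in SMC3 and CTCF it reads on the opposite strand.
STAG1 upstream: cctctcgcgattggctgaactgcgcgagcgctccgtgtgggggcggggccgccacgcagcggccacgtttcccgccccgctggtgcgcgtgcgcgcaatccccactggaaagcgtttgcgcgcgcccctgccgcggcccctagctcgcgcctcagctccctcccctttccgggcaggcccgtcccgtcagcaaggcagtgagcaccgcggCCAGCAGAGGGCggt
STAG1 second match: tggaaaatgCCACCAGATGGCgggttagga
WAPL upstream: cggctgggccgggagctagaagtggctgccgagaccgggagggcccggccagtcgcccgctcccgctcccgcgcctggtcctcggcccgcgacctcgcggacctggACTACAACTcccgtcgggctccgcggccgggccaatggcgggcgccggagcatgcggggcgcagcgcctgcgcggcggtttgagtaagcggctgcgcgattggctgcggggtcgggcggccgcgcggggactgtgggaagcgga
SMC3: cccacgagcgcCGCCATTTTgtttggctga
CTCF: caccgcgccgcCGCCATTTTgtgtctgagc
MAU2: ttgtggaggccAAAATGGCGgctcaggcgg

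Of all 35116 RefSeq windows of the same length, 0.47% hold the CTCF consensus, 3.19% the YY1 letters and 1.43% the ZNF143 letters. Since the motifs were chosen with the promoters of these genes in view, the shares are given as background only. Of the genes with a match to any of the 3 motifs, SMC3, MAU2 and STAG1 rose, and CTCF and WAPL did not pass. Of those without a match, SMC1A and STAG2 rose, NIPBL fell and PDS5A did not pass, and RAD21 had no window. Whether these motifs bear on the direction of change was not tested. YY1 and ZNF143 did not pass themselves: YY1 was at 51.2 TPM after MEN1 knockdown, against 55.5 in the controls (log2 fold change -0.11, adjusted p 0.185), and ZNF143 at 28.3 and 28.4 TPM (-0.01, adjusted p 0.968).

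Genes for proteins that act on the ring through the cell cycle moved in both directions. Of 8 such genes, 7 passed in limma (87.5%), 3 upward and 4 downward, beside 53.6% of all tested genes, with 22.1% higher and 31.5% lower. Their median log2 fold change was -0.15, beside -0.07. The cohesin acetyltransferases ESCO2 and ESCO1 parted. ESCO2, which acts in S phase, went up from 41.3 to 63.3 TPM (0.60 on the log2 scale, adjusted p 0.000283). ESCO1, which acts through interphase, fell from 27.0 to 17.1 TPM (-0.63, adjusted p 0.000441). ESCO2 overlaps PBK, which rose by 0.83 on the log2 scale, and CCDC25, which fell (-0.50), both on the other strand; the part of these overlaps in the ESCO2 value was not tested. ESPL1, the separase that cuts RAD21, rose from 23.6 to 37.2 TPM (0.64), and its inhibitor securin, encoded by PTTG1, from 219 to 333 TPM (0.61, adjusted p 0.000123). CDCA5, or sororin, which shields cohesin from WAPL, fell from 69.7 to 54.2 TPM (-0.36), the deacetylase HDAC8, which recycles SMC3, from 24.7 to 20.1 TPM (-0.29), and PDS5B from 42.1 to 30.1 TPM (-0.47). HDAC8 did not pass under quantile normalization (-0.15, adjusted p 0.0859). Its deposited coverage, 0.823 to 1.76 reads per base across libraries, was the lowest of the 8 genes. Coverage was no fixed multiple of FPKM across the CTCF and cohesin genes, so a low value does not by itself show few reads. The cause of the low HDAC8 value was not tested. SGO1, the centromeric protector, was at 29.6 and 30.1 TPM (-0.02, adjusted p 0.833), and its sign turned with scaling (0.06 under median-of-ratios scaling).

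Germline versions of the cohesin subunits were also present. STAG3 stood at 125 TPM in the controls and 118 with the MEN1 shRNA, above STAG2 in every library of both groups, and did not pass (log2 fold change -0.07, adjusted p 0.309; 0.01 under median-of-ratios scaling). SMC1B rose from 22.8 to 27.8 TPM (0.27, adjusted p 0.0253), and the meiotic kleisin gene REC8, fell from 23.2 to 15.5 TPM (-0.56, adjusted p 0.00379). REC8 overlaps IPO4 on the other strand, which was more abundant and fell from 97.2 to 43.7 TPM (-1.13), and the part of this overlap was not tested. The SMC1B rise did not pass in 7 of 17 alternatives, among them each left-out library other than MEN1 shRNA replicate 1 (adjusted p 0.0546 to 0.0847). RAD21L1 reached at most 0.683 TPM and is listed at 0 in every control library, and the CTCF paralog CTCFL reached at most 0.0235 TPM, so neither was tested.

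Of 7 architectural factors other than CTCF, 4 fell and 1 rose (71.4% called), beside 31.5% lower, 22.1% higher and 53.6% called among all tested genes. Their median log2 fold change was -0.63. LDB1, which joins the beta-globin enhancer to its promoters in erythroid cells, fell from 285 to 159 TPM (-0.84, adjusted p 0.000145). MAZ fell from 175 to 113 TPM (-0.63), the related zinc-finger gene PATZ1 from 30.5 TPM in the controls (-1.08) and the topoisomerase TOP2B from 140 to 89.5 TPM (-0.64), each with an adjusted p of at most 0.000215. VEZF1 rose from 31.5 to 36.0 TPM (0.19, adjusted p 0.0432), a call that 8 of 17 alternatives did not keep, again each left-out library other than MEN1 shRNA replicate 1 among them (adjusted p 0.0597 to 0.134).

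The other SMC complexes were called at shares near or below that of all tested genes (53.6%). Of 8 condensin genes 4 rose and 0 fell in limma (50.0% called), beside 22.1% higher and 31.5% lower over all genes, led by NCAPG (log2 fold change 0.46, adjusted p 0.000286) and SMC2 (0.35, adjusted p 0.00370). Of 9 genes of the SMC5/6 complex and its partners 2 rose and 2 fell (44.4% called, beside 53.6%), led downward by NSMCE4A (-0.97, adjusted p 0.000184) and SMC5 (-0.60, adjusted p 0.000487). Over all 5 lists, 22 of 35 tested genes passed (62.9%, beside 53.6% of all tested genes), 11 in each direction, with a median of -0.03.

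**Figure D4:**
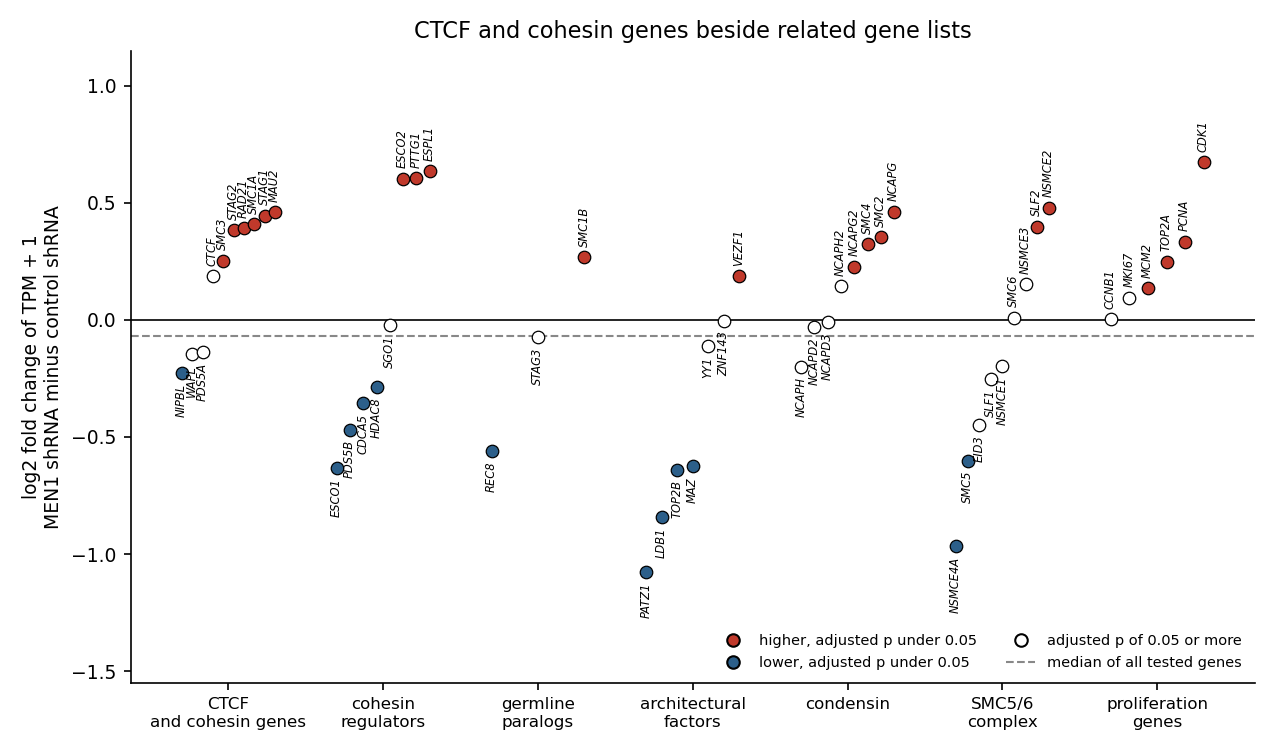
Log2 fold change of TPM + 1 for each tested gene of the CTCF and cohesin set, the 5 related lists and a list of proliferation genes, MEN1 shRNA minus control shRNA; red and blue points passed an adjusted p of 0.05 in limma, and the dashed line is the median of all tested genes. Cohesin ring and condensin genes that passed are all above 0, while PATZ1 (-1.08), NSMCE4A (-0.97) and LDB1 (-0.84) lie lowest.

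Several proliferation genes and erythroid markers also rose after the MEN1 shRNA, and others did not pass. Of 6 proliferation genes 4 rose, beside 22.1% of all tested genes, among them CDK1 (log2 fold change 0.67) and PCNA (0.33), while MKI67 (0.09, adjusted p 0.237) and CCNB1 (0.00, adjusted p 0.974) did not pass, and the summed TPM of the 6 was 1548 to 1621 in the controls and 1866 to 1942 with the MEN1 shRNA. Of the 9 erythroid markers 6 rose, beside the same 22.1%, and the median log2 fold change of the 9 was 0.73. KLF1 (-0.05), GATA1 (0.06) and EPOR (0.02) did not pass. The proliferation genes and erythroid markers are given as context. Their part in the rise of the cohesin genes was not tested, and in bulk RNA a change in the share of cells in a given state and a change of RNA per cell cannot be told apart.

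The genes whose profile over the 6 libraries lay nearest to a cohesin or CTCF gene were found by Euclidean distance between mean-centred log2(TPM + 1) values. LYRM2 (distance 0.0441) and TET2 (0.0517) were nearest to RAD21, ZMYND8 (0.0351) and PTPN21 (0.0413) to NIPBL, and DNASE1L2 (0.140) and LGALS3 (0.158) to CTCF. The CTCF distances were the longest of the 3 pairs. DNASE1L2 (1.16 TPM after MEN1 knockdown, 0.856 in the controls) and PTPN21 (1.38 and 1.84 TPM) lay near the filter. There log2(TPM + 1) understates changes, and neither gene passed in limma (adjusted p 0.373 and 0.178).

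**Figure D5:**
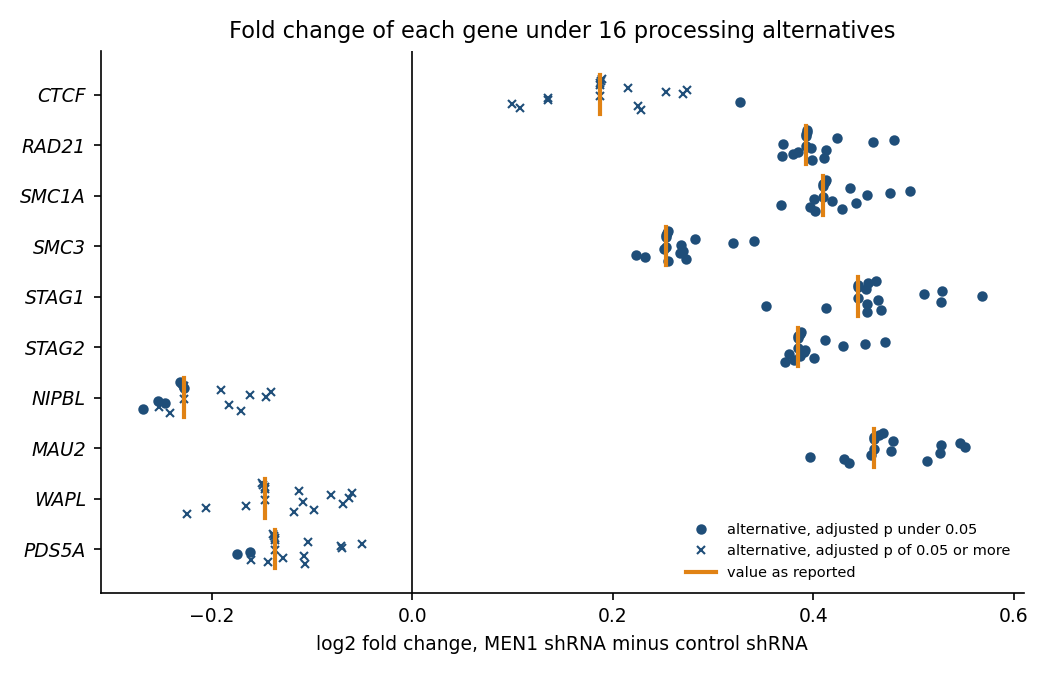
Log2 fold change of each gene under the reported processing (orange bar) and under 16 alternatives, namely other scalings, filters, pseudocounts, FPKM, array weights, a replicate block and each library left out; circles passed an adjusted p of 0.05 in limma and crosses did not. RAD21, SMC1A, SMC3, STAG1, STAG2 and MAU2 show circles only, whereas NIPBL, PDS5A and CTCF show both.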

How the data were processed

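Per the submitters' processing notes, FastQC, Trimmomatic, STAR 2.7.1a, Picard 2.20.4, StringTie 2.0.4 and the build hg38 were used; their settings, the annotation and the use of strand are not stated by the sources used here. The authors deposited 1 gene table per library with TPM (summing to 1000000), FPKM (normalised for transcript length and fragment total by the authors) and coverage (deposited, reads per base, not scaled for depth). In control replicate 2, 3 values just below 0 were set to 0. Per the labels' protocols the libraries were poly(A)-selected and directional. Of the identifiers, 58261 are in GENCODE 29 and 99.8% of these overlap their GRCh38 position there.

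log2(TPM + 1) values of 14294 genes were fitted with limma 3.58.1 (R 4.3.3; lmFit, eBayes with trend; 2-sided, Benjamini-Hochberg over all tested genes, threshold 0.05); every adjusted p without another name is from this fit. A fold change on this scale understates changes of low genes. No counts were used, so no count model was fitted. The fit was tested on simulated data with 50 changed genes at each of 4 sizes. It recovered 2% of log2 changes of 0.25, 38% of 0.5, 94% of 1 and 100% of 2, with 16 false calls. Far fewer genes changed in the simulation than passed in the data, so these shares do not carry over directly. A gene that did not pass may still have changed by a small amount. Ratios were compared with exact permutation tests (SciPy 1.17.1). The CTCF and cohesin genes, the lists and the tests were chosen with earlier results of these data known. Named genes are all 10, MEN1, every gene of the regulator, germline and architectural lists, the 2 called genes with the lowest adjusted p of condensin and SMC5/6, and the 2 nearest profiles to CTCF, RAD21 and NIPBL; proliferation genes, markers and overlapping genes are named as context. Replicates are labelled as biological, without saying how they were separated, so p-values measure only the spread between these libraries. Alternatives were other pseudocounts, filters and scalings, FPKM or coverage in place of TPM, array weights, a test against a minimum change, a replicate block and each library left out. From the erythroid markers 1 gene is not reported here and was left out of its list.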

Additional observations from a re-analysis of the deposited data

How the results depend on the processing

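The limma results were recomputed under 17 alternatives; the limma fit of ratios and the NIPBL to MAU2 ratio were added after the data were seen. The 5 ring and STAG genes and MAU2 kept direction and call in 16 of the 17. The exception was limma's treat against a log2 change of 0.5, which by construction left 2126 of 7657 genes, 3 genes of the related lists and 0 of the 10 (0 also at an unadjusted p under 0.05). NIPBL lost its call in 11, with adjusted p up to 0.123 outside treat; CTCF gained one in 1 and PDS5A in 2. Counts called with each library left out ran from 6577 to 7542 over all genes, 6 to 8 for the 10 genes and 19 to 24 for the related lists; 8 of the 10 passed without MEN1 shRNA replicate 1, where PDS5A was added. The count of genes that fell among the 10 was 1 as reported, 0 under 11 alternatives and 2 under 2.

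With deposited coverage in place of TPM the difference in the PDS5A share was 0.943 percentage points and that of log2 NIPBL to MAU2 -0.51; coverage of multi-transcript genes is no fixed multiple of FPKM, and the cause was not tested. With 1 library left out the differences ran from -0.222 to 1.67 points (STAG1 share), 4.64 to 5.12 points (PDS5A share), -0.18 to -0.02 (NIPBL to WAPL), -0.30 to -0.05 (CTCF to RAD21) and -0.79 to -0.65 (NIPBL to MAU2). Signs never past the threshold turned for SGO1 with FPKM (0.0085), median-of-ratios scaling (0.063), rescaling without globin and mitochondrial genes (0.043) and quantile normalization (0.076), for ZNF143 under the same 4 (0.025, 0.080, 0.060 and 0.101) and for STAG3 under median-of-ratios scaling (0.013); with 1 library left out SGO1 ran from -0.064 to 0.040 and ZNF143 from -0.071 to 0.037. No scaling shifted the all-gene median log2 fold change by more than 0.078.

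Same-numbered libraries did not deviate together (correlations 0.017, -0.027 and -0.012), so the numbers were not taken as pairs. With the replicate block 7012 genes passed and NIPBL did not (adjusted p 0.0882); the ratio differences were unchanged by construction.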

Other observations

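Deposited coverage, expressed as a percent of what FPKM and library depth give for a single-transcript gene, differed widely among the 10 genes: 5.86% for STAG2, 14.5% for MAU2, 25.1% for RAD21 and 86.2% for WAPL as control means. The cause was not tested.

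STAG3, named for the germline complex, was the most abundant of the 3 STAG transcripts in each of the 6 libraries. It stood at 120, 130 and 124 TPM in the controls, against 87.4, 85.0 and 84.0 for STAG2. After MEN1 knockdown STAG3 was at 122, 116 and 117 TPM, against 111, 113 and 111 for STAG2. The tables do not say which STAG3 transcripts these are.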
